A study of Ovis aries with 12 samples.

Results

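The genes described here were lower in mitral valve leaflets of sheep 4 weeks after a myocardial infarction (MI) than in leaflets taken before it, and higher again on average at 8 weeks. There were 129 such genes among the 25197 gene IDs measured. They were chosen by their CPM, the count a gene would have in a library scaled to a total of 1000000 counts. Each had a mean of at least 1 CPM over the 12 libraries and a highest 4-week value below its lowest pre-MI value. The pre-MI mean and the 8-week mean each had to be at least 1.5 times the 4-week mean, and the 37 lowest-numbered IDs were left out, of which 0 met the other criteria. Because measured values chose these genes, their differences between time points are given as a description. P-values of time contrasts, from fits of all genes, are printed below but are not a test of these differences.

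Leaflets were the anterior ones of adult Dorset sheep, 1 animal per library. The pre-MI group held 3 animals with no regurgitation, and the labels describe no sham operation for it. All animals sampled later had branches of the circumflex coronary artery tied off for good, which kills part of the posterior wall of the left ventricle. At 4 weeks there were 3 animals with ischemic mitral regurgitation (IMR, backward flow through the valve) and 2 without, and at 8 weeks 2 with and 2 without, as graded by echocardiography. The series description calls the regurgitation low-grade. Library totals ran from 7768007 to 19175100 counts. Animals are named below by group and by the number in their title.

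The mitral leaflet is a thin sheet of collagen, elastin and proteoglycans, covered by endothelial cells and kept up by fibroblast-like interstitial cells. After a posterior infarction the papillary muscle that anchors the leaflet can shift and pull on it, and interstitial cells can become activated and change the matrix they make. A whole leaflet was ground for each library, so less RNA per cell and fewer cells of a type cannot be told apart in any value below. The deposited table does not pair its Ensembl IDs with gene names, and 0 of them matched the RefSeq names table used here. The functions of the 129 genes, and markers of the cells a leaflet or its attached muscle holds, were therefore not analysed here, and only 4 IDs chosen by a fixed rule are printed.

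The criteria left genes step by step. Without the 37 lowest-numbered IDs, 13605 genes reached a mean of 1 CPM. Of these, 391 had a highest 4-week value below the lowest pre-MI value, which is 2.87% of them. A pre-MI mean of at least 1.5 times the 4-week mean was met by 270 of the 391, and 129 of those 270 (47.8%) also had an 8-week mean of at least 1.5 times the 4-week mean. Over all 13605 genes, 14.7% met that 8-week criterion, which uses the same 4-week values. The 141 genes that missed it had a median ratio of the 8-week to the 4-week mean of 1.21, and in 15 of them the 8-week mean lay below the 4-week mean.

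When the 3, 5 and 4 labels of the time points were placed on the 12 columns in all 27720 possible ways, the same criteria kept a median of 34 genes and between 0 and 2096. The deposited labels gave 129, and 3821 of the assignments (13.8%) gave at least as many. A list of this size therefore arose under many assignments that mix the time points.

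**Figure D1:**
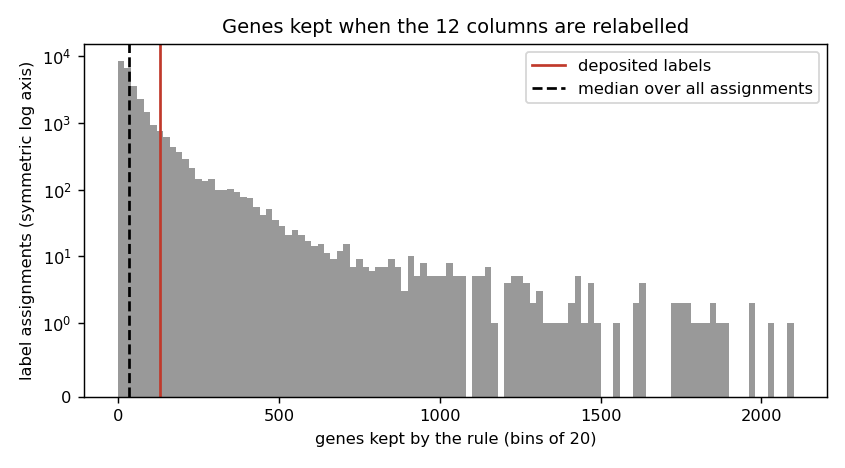
Number of genes kept by the criteria (x axis, bins of 20 genes) against the number of label assignments (y axis, symmetric log scale) over all 27720 assignments. The red line marks the 129 genes of the deposited labels, to the right of the dashed median of 34 and far below the highest value of 2096.

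Most of the 129 genes were of low or moderate abundance. Their mean level ran from 1.03 to 363 CPM with a median of 12.2 CPM, against a median of 20.8 CPM over all 13605 genes. Levels of different genes are not compared further, since CPM do not correct for gene length. There were 10 genes of at least 100 CPM, 69 of at least 10 CPM and 35 under 5 CPM. The median count per library was under 20 for 8 of the genes, and 4 of them had a count of 0 in some library.

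Together they took 0.483% to 0.571% of the counts in pre-MI libraries, 0.159% to 0.310% at 4 weeks and 0.397% to 0.633% at 8 weeks. The pre-MI mean was 1.50 to 8.65 times the 4-week mean, with a median of 2.31. The 8-week mean was 1.50 to 9.88 times the 4-week mean, with a median of 1.99. Both ratios were at least 2 in 57 genes and at least 3 in 20. CPM themselves lay lower at 4 weeks: over all 13605 genes the median ratio of pre-MI to 4-week means was 1.12, or 0.16 on the log2 scale, and that of 8-week to 4-week means was 1.04. Relative to those medians, the 129 genes had a median log2 ratio of 1.05 for pre-MI over 4 weeks and 0.94 for 8 weeks over 4 weeks.

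The genes nearest to the thresholds differed little from those just beyond them. The smallest ratio of 8-week to 4-week means inside the list was 1.502, and the next gene outside had 1.498. For pre-MI over 4 weeks these ratios were 1.501 and 1.486. The lowest pre-MI value was 1.002 times the highest 4-week value in the gene just inside and 0.999 times in the one just outside, and the mean level was 1.03 CPM just inside and 0.976 CPM just outside. In 50 of the 129 genes the lowest pre-MI value was less than 1.1 times the highest 4-week value, and in 16 it was at least 1.5 times that value.

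**Figure D2:**
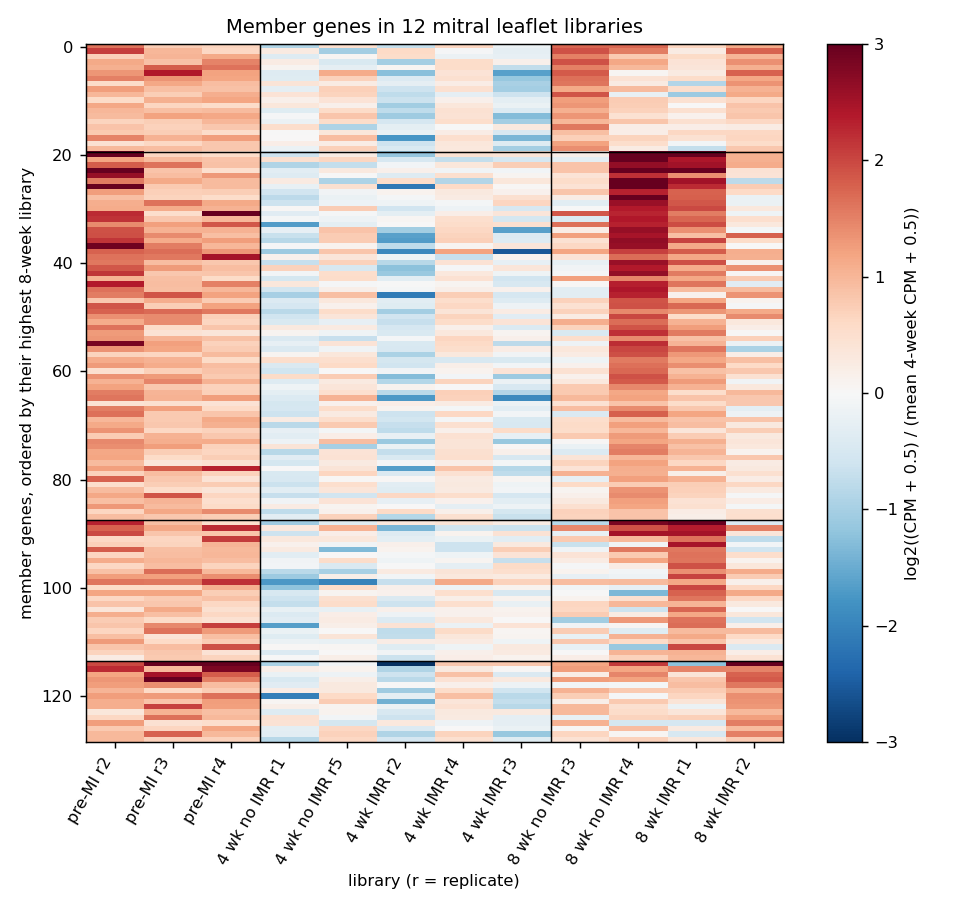
Each row is 1 of the 129 genes and each column a library (r, replicate), and the colour is the log2 ratio of CPM to the gene's 4-week mean with 0.5 added to both, with colours saturated at 3 in either direction. Rows are grouped by the 8-week library in which the gene was highest. The largest block, 68 genes (52.7%, against 22.7% of all genes), peaked in 8-week replicate 4 without IMR.

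Among the 129 genes, the most abundant one shows the pattern on high counts. It had 418, 507 and 435 CPM in the pre-MI libraries. At 4 weeks it had 197 and 284 CPM without IMR and 211, 338 and 207 CPM with IMR. At 8 weeks it had 429 and 600 CPM without IMR and 423 and 304 CPM with IMR. All 5 libraries at 4 weeks lay below all pre-MI libraries, while 8-week replicate 2 with IMR lay below the highest 4-week library. Its counts ran from 2203 to 9002.

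The third most abundant gene kept a gap on both sides. It had 216, 725 and 243 CPM pre-MI. Its values at 4 weeks were 61.6 and 97.3 CPM without IMR and 48.3, 116 and 104 CPM with IMR. At 8 weeks they were 205 and 199 CPM without IMR and 152 and 310 CPM with IMR. No library at 4 weeks reached the lowest library of either other time point, and the pre-MI mean rested largely on replicate 3.

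ENSOARG00000011683 had the widest gap between pre-MI and 4 weeks, its lowest pre-MI value being 2.95 times its highest 4-week value. It had 3.20, 3.04 and 6.19 CPM pre-MI (4.14 ± 1.77, SD, n = 3). At 4 weeks it had 0.805 and 1.03 CPM without IMR and 0.581, 0.237 and 0.778 CPM with IMR (0.686 ± 0.297, SD, n = 5). All 5 libraries at 4 weeks lay well below the pre-MI range, on counts of only 4 to 10 against 47 to 76. At 8 weeks it had 1.08 and 3.32 CPM without IMR and 2.13 and 1.98 CPM with IMR (2.13 ± 0.922, SD, n = 4), so that only replicate 4 without IMR reached the pre-MI range. In the edgeR fit, scaled by trimmed mean of M values (TMM), its log2 fold change was -2.28 (SE 0.59) for 4 weeks against pre-MI and 1.49 (SE 0.56) for 8 weeks against 4 weeks.

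ENSOARG00000010771 had the second widest gap, with a lowest pre-MI value 2.32 times its highest 4-week value. It had 26.2, 52.8 and 55.3 CPM pre-MI (44.8 ± 16.1, SD, n = 3). At 4 weeks it had 2.98 and 5.79 CPM without IMR and 0, 11.3 and 11.3 CPM with IMR (6.26 ± 5.01, SD, n = 5). The count of 0, in replicate 2 with IMR, allows up to 0.249 CPM at 3 counts. The 8-week libraries did not move together: they had 14.8 and 28.4 CPM without IMR and 2.37 and 79.5 CPM with IMR (31.3 ± 33.9, SD, n = 4). The 2 libraries with IMR at 8 weeks were thus the lowest and the highest of the 4, and the lowest lay inside the 4-week range. The log2 fold changes in edgeR were -2.75 (SE 1.17) and 2.31 (SE 1.11).

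ENSOARG00000023039 had the widest gap between 4 and 8 weeks, its lowest 8-week value being 2.49 times its highest 4-week value. It had 3.94, 1.35 and 6.11 CPM pre-MI (3.80 ± 2.38, SD, n = 3). At 4 weeks it had 0.564 and 0.515 CPM without IMR and 0, 0.652 and 0.467 CPM with IMR (0.440 ± 0.255, SD, n = 5). At 8 weeks it had 1.76 and 1.62 CPM without IMR and 2.13 and 2.14 CPM with IMR (1.91 ± 0.263, SD, n = 4). The 4 libraries at 8 weeks lay close together and inside the wide pre-MI range. Its log2 fold changes in edgeR were -2.82 (SE 0.77) and 1.96 (SE 0.73), on counts of 0 to 11 at 4 weeks.

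ENSOARG00000014391 ranked next by that gap, with a lowest 8-week value 1.35 times its highest 4-week value. It had 2.45, 1.52 and 1.55 CPM pre-MI (1.84 ± 0.528, SD, n = 3). At 4 weeks it had 0.322 and 0.644 CPM without IMR and 0.829, 1.01 and 0.856 CPM with IMR (0.732 ± 0.263, SD, n = 5). At 8 weeks it had 1.70 and 5.64 CPM without IMR and 3.71 and 1.36 CPM with IMR (3.10 ± 1.98, SD, n = 4). Replicate 4 without IMR and replicate 1 with IMR lay above every pre-MI library, and replicate 2 with IMR lay below all of them. The log2 fold changes were -1.31 (SE 0.59) and 2.17 (SE 0.56) in edgeR.

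**Figure D3:**
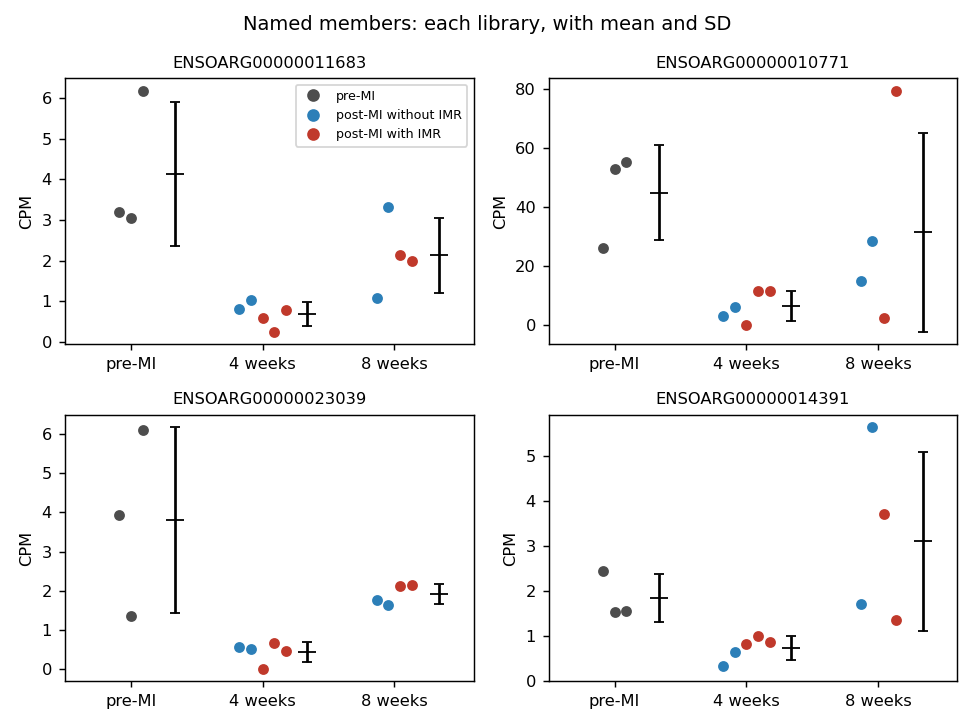
CPM of the 4 named genes (y axes, linear) in each library at the 3 time points, with the mean and SD of each time point beside the points. In each panel the 5 points at 4 weeks lie below the 3 pre-MI points, and ENSOARG00000010771 spans 2.37 to 79.5 CPM at 8 weeks.

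At 8 weeks the list was far from uniform. The 8-week range lay wholly above the 4-week range in 20 of the 129 genes, where 0.632% of all 13605 genes had that separation. The rule used the 8-week and 4-week means, so nothing is read from that difference. In 57 genes 2 of the 4 libraries lay above the highest 4-week value, in 40 genes 3 did, in 11 genes 1 did and in 1 gene none did. Without each gene's highest 8-week library, 88 of the 129 had an 8-week mean of at least 1.5 times the 4-week mean. The median ratio was then 1.60. The genes were chosen on this ratio, so both values are a description, and the share over all genes was not computed. The coefficient of variation (SD over mean) of the 129 genes had a median of 0.462 at 8 weeks, against 0.327 for all genes. Pre-MI it was 0.240 against 0.263, and at 4 weeks 0.412 against 0.412. The rule used the values of each time point, so nothing is read from these differences in spread either.

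The 8-week means were close to the pre-MI means on balance. Their ratio had a median of 0.940 over the 129 genes and 0.943 over all genes, and 50 of the 129 had a higher mean at 8 weeks than pre-MI. The 8-week and pre-MI ranges did not overlap in 4 of them, all 4 lower at 8 weeks, where 4.60% of all genes had ranges that did not overlap. Both means entered the rule, so this closeness is not a test of a return to the pre-MI level. In edgeR 0 of the 129 and 0 of all genes tested had an adjusted p under 0.05 for 8 weeks against pre-MI. An unadjusted p under 0.05 was found in 0 of the 129 and in 1.93% of all genes tested. DESeq2 likewise gave 0 and 0 of the 129, against 2 genes adjusted and 2.14% unadjusted over all. The same means entered the rule, so nothing is read from these counts.

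The 8-week libraries separated in a recurring way. For each gene the 2 highest of the 4 libraries at 8 weeks were listed. In 62 of the 129 genes (48.1%) these were replicate 4 without IMR and replicate 1 with IMR, a pair that was highest in 24.5% of all 13605 genes. In those 62 genes the mean of that pair was 3.41 times the 4-week mean at the median. The mean of replicate 3 without IMR and replicate 2 with IMR was 1.25 times it. Over all genes with that pair highest these ratios were 1.71 and 0.80. Choosing genes by their highest pair sets that pair above the other, and the rule used the 8-week mean, so these ratios are a description. The opposite pair, replicate 3 without IMR and replicate 2 with IMR, was highest in 22 of the genes (17.1%) and in 31.8% of all genes. In these 22 the corresponding ratios were 2.33 for the high pair and 1.33 for the low pair. They were 1.24 and 0.76 over all genes with the opposite pair highest. Since each pair holds 1 animal with and 1 without regurgitation, neither follows the IMR label.

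**Figure D4:**
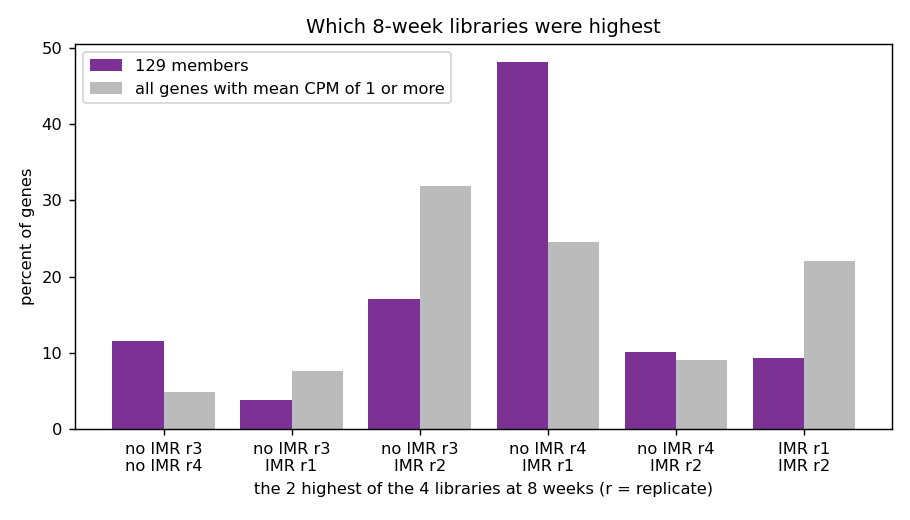
Percent of genes (y axis) for which each pair of libraries (x axis; r, replicate) was the highest 2 of the 4 at 8 weeks, for the 129 genes and for all genes with a mean of at least 1 CPM. The pair of replicate 4 without IMR and replicate 1 with IMR stands at 48.1% of the 129 genes and 24.5% of all genes.

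The same pair of libraries differed from the others in the share of counts taken by the 37 lowest-numbered IDs. That share was 11.3% in 8-week replicate 4 without IMR and 7.14% in 8-week replicate 1 with IMR, and 0.954% and 2.04% in the other 8-week libraries. Before MI it was 5.97% in replicate 2, 2.38% in replicate 3 and 0.928% in replicate 4, and at 4 weeks it was 0.957% to 1.88%. Pre-MI replicate 2 was the highest pre-MI library for 70 of the 129 genes (54.3%, against 30.3% of all genes), and for 44 of the 62 genes that were highest in the 8-week pair. Among all genes with that 8-week pair on top it was the highest pre-MI library in 58.0%. The part of this share in the pattern was not tested.

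Membership was recomputed without those libraries. Leaving out both 8-week libraries gave 123 genes, 71 of them among the 129. Leaving out pre-MI replicate 2 as well gave 328 genes, 70 of them among the 129, since fewer pre-MI libraries make the criterion on ranges easier to meet. All 4 named genes met the criteria in both cases, which their choice for wide gaps in these same libraries favours. With CPM computed on totals that exclude the 37 IDs, 156 genes met them, including 128 of the 129.

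**Figure D5:**
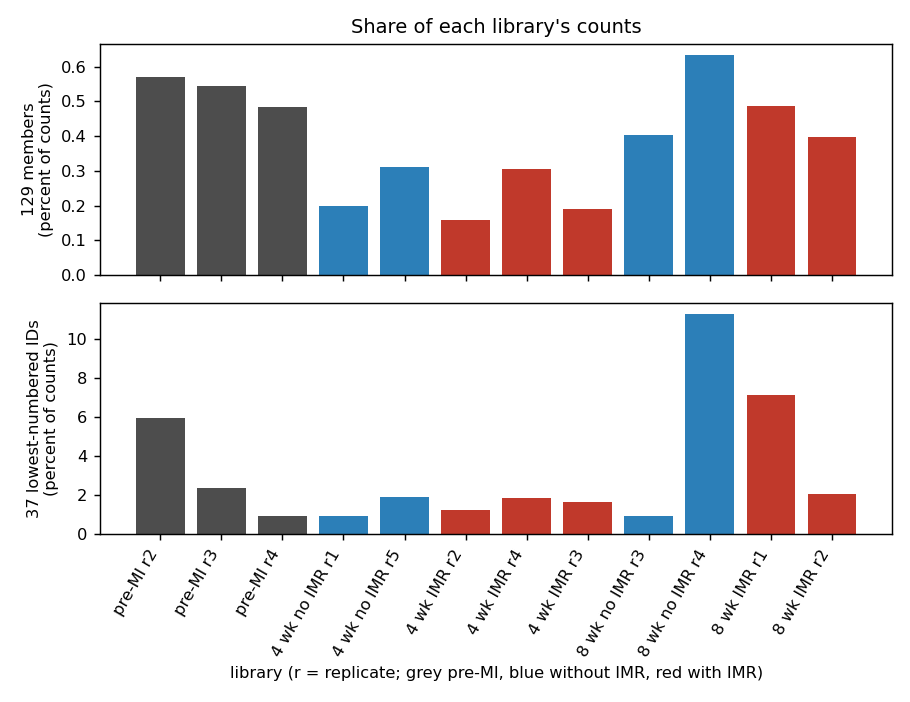
Percent of each library's counts (y axes, from 0) taken by the 129 genes (top) and by the 37 lowest-numbered IDs (bottom), with bars coloured by group. The 129 genes took 0.633% in 8-week replicate 4 without IMR, the library with the highest share of the 37 IDs at 11.3%.

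The 4-week libraries also differed in how low these genes were. Replicate 5 without IMR was the highest 4-week library for 52 genes and replicate 4 with IMR for 42. Among all genes these libraries were highest in 38.3% and 20.6%, against 40.3% and 32.6% of the 129. The lowest library was replicate 2 with IMR in 48 genes (37.2%, against 21.9% of all genes) and replicate 1 without IMR in 39 (30.2%, against 36.9% of all genes). Replicate 5 without IMR had the fewest counts of the series (7768007), and the 10 leading genes of replicate 1 without IMR held 25.2% of counts (13.7% to 16.3% in the others sampled at 4 weeks). The part of either in the low values was not tested.

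Both the list and its size depended on the scaling. With CPM on TMM-adjusted library sizes 93 genes met the criteria, 76 of them among the 129. With DESeq2 size factors there were 96, of which 81 were among the 129. Under TMM scaling all 129 had a negative edgeR log2 fold change for 4 weeks against pre-MI (median -1.05, range -3.09 to -0.33). All had a positive one for 8 weeks against 4 weeks (median 0.92, range 0.20 to 3.78). The rule asked for both directions in the same counts, so nothing is read from these signs. There were 51 genes that met the criteria under all 3 other scalings and with any single library left out, the 4 named genes among them. Of the named genes only ENSOARG00000010771 also had a mean of at least 5 CPM. In 30 of the 51 the highest 8-week pair was replicate 4 without IMR and replicate 1 with IMR, against 62 of the 129 and 24.5% of all genes. Every 8-week library lay above the highest 4-week library in 9 of the 51, against 20 of the 129. In these 51 the median ratio was 2.64 for pre-MI over 4 weeks and 2.38 for 8 weeks over 4 weeks.

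No time difference of a single gene passed the edgeR threshold, among the 129 or among all 14804 genes tested. For 4 weeks against pre-MI, 0 of the 129 had an adjusted p under 0.05 in edgeR's quasi-likelihood test, and 70 had an unadjusted p under 0.05 (4.74% of all 14804 genes tested did). For 8 weeks against 4 weeks these counts were 0 and 75, where 7.2% of all genes had an unadjusted p under 0.05 in edgeR. The rule used both contrasts, so the members' counts carry no weight of their own. DESeq2 gave an adjusted p under 0.05 to 6 of the 129 for 4 weeks against pre-MI (0.199% of all genes with an adjusted p) and to 4 for 8 weeks against 4 weeks (0.219% of all). These DESeq2 counts come from the contrasts that chose the genes, so nothing is read from their excess over all genes.

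Regurgitation was not used by the rule, and its effect on these genes within each time point was tested. The rule did use the 4-week and 8-week values of the same libraries. Shares of members beside those of all genes are therefore a description, here and in the IMR results below. At 4 weeks, 0 of the 129 passed an adjusted p of 0.05 in edgeR, and 0 of all 14804 genes tested did. The smallest adjusted p in edgeR was 0.637 in both sets. Before adjustment, 12 members (4 higher and 8 lower with IMR) had a p under 0.05, which is 9.30%, against 7.42% of all genes tested (552 higher and 547 lower). The ranges with and without IMR did not overlap in 26 genes, 13 in each direction, which is 20.2% against 23.3% of all genes. Both shares lay near those of all genes. The median log2 difference was -0.15, with a median SE of 0.58.

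A single member had a DESeq2 adjusted p under 0.05 for IMR at 4 weeks (0.0496), where 0.0663% of all genes did. It is described here because of that value. It had 1.05 and 0.772 CPM at 4 weeks without IMR and 2.65, 10.8 and 7.71 CPM with IMR, so that the groups did not overlap. Its edgeR log2 difference was 2.72 (SE 0.65, adjusted p = 0.637). It had 15.0, 14.9 and 22.7 CPM pre-MI, above all 4-week libraries, and 5.16 to 11.0 CPM at 8 weeks.

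At 8 weeks, edgeR gave every member an adjusted p of 1, and 0 of all genes tested passed. Before adjustment, 8 members had a p under 0.05 (7 of them higher with IMR), or 6.20% against 2.39% of all genes. Most of those genes in the whole series were also higher with IMR (308 of 354). Over the whole list, 29 of the 129 had a positive edgeR log2 difference (22.5%, against 47.6% of all genes), and the median was -0.42 with a median SE of 0.62. The list's high library, replicate 4 without IMR, belongs to the group without regurgitation, and its part in the negative differences was not tested. The ranges did not overlap in 27 genes (20.9%, against 26.9% of all genes), 12 higher and 15 lower with IMR. The list was chosen partly on a high 8-week mean, and each group held 2 libraries.

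Over both time points edgeR passed 0 members and 0 of all genes tested. There were 14 members with p under 0.05 before adjustment (5 higher, 9 lower with IMR), or 10.9% against 5.17% of all genes. Those genes in the whole series were 522 higher and 244 lower with IMR. The smallest adjusted p was 0.863 in edgeR. The test of whether the IMR effects differed between 4 and 8 weeks passed 0 members and 0 of all genes in edgeR. It gave 4 members an unadjusted p under 0.05 (3.10%, against 3.35% of all genes). DESeq2 passed 0 of the 129, and 0 of all genes, for IMR at 8 weeks, over both times and in the interaction. For the 4 named genes the edgeR log2 difference with IMR at 4 weeks was -0.81 (SE 0.77) for ENSOARG00000011683 and 0.72 (SE 1.51) for ENSOARG00000010771. It was -0.70 (SE 1.02) for ENSOARG00000023039 and 0.87 (SE 0.80) for ENSOARG00000014391. Each of these is smaller than 1.1 times its standard error, and their edgeR adjusted p ran from 0.731 to 0.887. At 8 weeks the differences, in the same order, were -0.26 (SE 0.79), 0.69 (SE 1.57), 0.19 (SE 1.01) and -0.68 (SE 0.78), each with an edgeR adjusted p of 1. All but that of ENSOARG00000023039 changed sign when 1 of the 8-week libraries was left out.

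The variation of the 129 genes among libraries of the same time point was also described. With each gene's log2 CPM (TMM-scaled) centred on the mean of its time point, the mean pairwise Pearson correlation over the 12 libraries was 0.189 among the 129 genes and 0.00529 among 14789 genes tested without the 37 IDs. The rule chose the genes from the values of these 12 libraries, and a high 8-week mean favours genes that are high in the same 8-week libraries. The genes also share depth and scaling, so both values are a description and nothing is read from their difference. The median centred level of the 129 genes was highest in 8-week replicate 4 without IMR (0.54 on the log2 scale), pre-MI replicate 2 (0.31) and 8-week replicate 1 with IMR (0.18). It was lowest in 8-week replicate 2 with IMR (-0.45), 8-week replicate 3 without IMR (-0.35) and 4-week replicate 2 with IMR (-0.31). Over all genes the same medians lay between -0.05 and 0.08.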

How the data were processed

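The authors deposited raw, unnormalized counts for each animal's library, indexed by Ensembl sheep gene IDs. TopHat2 2.0.12, Bowtie2 2.2.3 and HTSeq 0.6.1 appear in the submitters' processing notes. Build, annotation, strand setting and treatment of multiply assigned reads are not given in the sources used here, so counts of paralogs and of overlapping or antisense genes are uncertain. Library totals ran from 7768007 to 19175100 counts, with the lowest in 4-week replicate 5 without IMR. Every column matched 1 sample by its title. Any pair of libraries differed by a chi-square of at least 44.9 per degree of freedom, so no library repeats another. The series description counts 13 animals while its groups add up to the 12 libraries. No sequencing batch is recorded in the labels.

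CPM that chose the genes used column totals. Tests used edgeR 4.0.16 (R 4.3.3) with TMM factors (0.717 to 1.19), filterByExpr on the 5 groups of time and regurgitation (14804 genes, all 129 among them), and a robust quasi-likelihood fit of the 12 libraries (7 residual degrees of freedom). Time contrasts weigh the groups with and without IMR equally. P-values were Benjamini-Hochberg adjusted over all genes tested in a contrast, with a threshold of 0.05. Standard errors were derived from the log2 fold change and its F statistic. Log2 CPM used a prior count of 2. DESeq2 1.42.0, other scalings, filters, the animal number as a block and leaving out libraries were alternatives. In DESeq2, 1 of the 129 had no adjusted p and was not counted.

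Named genes were the 2 with the largest ratio of lowest pre-MI to highest 4-week CPM and the next 2 by lowest 8-week over highest 4-week CPM. The members and lists were chosen with earlier results of these data known. A limit of 3 counts was used where a count was 0, and it covers counting error only. The p-values set a difference between groups against the spread between these animals within the 5 groups. Gene lists by symbol were not used, since the RefSeq table (assembly ARS-UI_Ramb_v3.0) matched 0 IDs. Figures were drawn with matplotlib 3.10.9.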

Additional observations from a re-analysis of the deposited data

Results flagged for a closer look

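Among 14 comparisons of libraries within 4 or 8 weeks (the summed level of the 129 genes, the share of the 37 lowest-numbered IDs, the share of the 10 most abundant genes, and the 4 named genes), 2 held a library far from the others of its time point. Distance was judged by Dixon's ratio of the gap beside the extreme library to the whole range and its critical value, which chance passes in about 1 of 20 groups. The 10 most abundant genes took 25.2% of counts in 4-week replicate 1 without IMR. ENSOARG00000023039 was at 0 CPM in 4-week replicate 2 with IMR. The rest of that time point had 0.467 to 0.652 CPM of it, or counts of 4 to 11.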

How the results depend on the processing

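The alternatives were fixed together with the tests, except for the settings that omit several libraries, which were chosen after seeing the data. The 129 genes became 57 with both ratios at least 2, 363 with no minimum ratio, 123 without both 8-week libraries rich in the 37 lowest-numbered IDs and 328 without pre-MI replicate 2 as well. With 1 library left out there were 127 to 419 genes. The number moved by more than 1.5 times without any of the pre-MI libraries (247 without replicate 2, 254 without replicate 3, 230 without replicate 4), or either of 2 libraries from 4 weeks, replicate 5 without IMR (419) or replicate 4 with IMR (300). Fewer libraries in the criterion on ranges make it easier to meet. The mean pairwise correlation within time points was 0.209 on column totals and 0.154 to 0.206 with 1 library left out. With only genes of at least 5 CPM tested (94 members), 7 members had an unadjusted p under 0.05 for IMR at 4 weeks. At 8 weeks there were 4 such members, and 3 with only the libraries compared in the fit. The share of all genes with such a p was not computed for these fits or those below. Nothing about the members is read from how their counts moved. Leaving out 1 library gave 3 to 21 such members at 4 weeks (3 without replicate 1 without IMR, 5 without replicate 3 with IMR, 7 without replicate 2 with IMR and 21 without replicate 4 with IMR), and 7 to 13 at 8 weeks (13 without replicate 3 without IMR). It gave 7 to 24 over both times: 24 without 4-week replicate 4 with IMR, 7 without replicate 2 with IMR, and 8 without either replicate 3 with IMR or replicate 1 without IMR. For the interaction it gave 3 to 8: 8 without 4-week replicate 4 with IMR, 8-week replicate 3 without IMR or 8-week replicate 1 with IMR. It was 7 when either of the remaining 8-week libraries was left out. The cause was not tested, and edgeR gave 0 members an adjusted p under 0.05 in each of these fits. With 1 library left out, the log2 difference with IMR at 8 weeks ran from -0.88 to 0.79 for ENSOARG00000011683 and from -1.67 to 0.45 for ENSOARG00000014391, positive for both without replicate 4 without IMR. For ENSOARG00000010771 it ran from -3.27 (without replicate 2 with IMR) to 1.64. A group cut to 1 library in these fits is assumed to vary like the others. The replicate block on the number in the titles gave 10, 8, 12 and 8 members at an unadjusted p under 0.05 for IMR at 4 weeks, at 8 weeks, over both times and for the interaction. Libraries with the same number had deviations from their group means that correlated at a mean of -0.0613 (10 pairs, -0.499 to 0.472, 3 of them over 0.1). In a group of 2 libraries the deviations mirror each other, so these correlations cannot decide whether the numbers pair the animals. The numbers were not taken to do so.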
